A study of Mus musculus with 6 samples.

Results

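The genes described here encode 56 regulators of chromatin that are mutated in acute myeloid leukemia (AML) or needed by its cells: enzymes that methylate and demethylate DNA, Polycomb repressors, histone methyltransferases and demethylases, acetyltransferases, deacetylases, nucleosome remodellers and the factors CTCF and PHF6. They were given by name. Of the 56 genes, 52 had a probe set of their own among the 30740 genes measured. The probe sets of Bcor, Brd3, Arid1a and Chd4 are each paired with another gene as well, and these 4 genes have no value here.

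RNA was measured on 6 microarrays of mouse AML cells driven by MLL-AF9, 3 from leukemias with the Ppara +/+ genotype and 3 from leukemias with the Ppara -/- genotype. MLL-AF9 joins the chromatin-targeting part of KMT2A (MLL) to AF9. An MSCV retrovirus that also encodes green fluorescent protein (GFP) had brought the fusion into the cells. All 6 samples carry this retrovirus and were sorted for GFP from marrow of secondary recipients. The genotypes differ in Ppara, the gene of a nuclear receptor that is activated by fatty acids. The labels do not give the genotype or age of the recipients, nor say whether the replicates were separate primary leukemias or separate animals, so a p-value here reflects only how these samples vary, which may be technical.

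Chromatin regulators set which genes a blood cell can read. Polycomb repressive complex 2 (PRC2) methylates histone H3 at silent developmental genes, PRC1 binds that mark and ubiquitinates histone H2A, and COMPASS complexes, the family to which KMT2A belongs, place an activating methyl mark near promoters. DNMT enzymes methylate cytosine, TET enzymes oxidise the methyl group, and acetyltransferases and deacetylases add and remove the acetyl marks that BET proteins read. MLL-fused leukemias depend on several of these activities for the HOXA and MEIS1 programme, and inhibitors of several are used or tested as drugs.

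In Ppara -/- leukemia none of the 52 measured chromatin regulators passed the test in either direction. All 52 had a 95% interval that lay within a 2-fold change of signal either way. The largest differences were those of Kdm5b, a demethylase that removes the activating methyl mark (log2 difference 0.53, Ppara -/- minus Ppara +/+), and of Tet1 (0.35), both higher in Ppara -/- cells and neither past the test. The largest in the other direction were those of Tet2 (-0.28) and of the PRC1 ubiquitin ligase Rnf2 (-0.27). The median over the 52 genes was 0.02, as over all genes (0.02), with 29 positive and 23 negative differences. With 1 array left out the median over the 52 ranged from -0.03, without Ppara +/+ replicate 2 (20 positive, 32 negative), to 0.06, without Ppara +/+ replicate 1 (36 positive, 16 negative, and -0.01 over all genes). In 30 of the 52 the absolute difference was under 0.1.

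The test was limma's moderated test across all 30740 genes with Benjamini-Hochberg adjustment, and a gene was called at an adjusted p under 0.05. It called 36 genes in all, 0.117% of those tested and 0.0586% in each direction, and 0 of the 52. At an unadjusted p under 0.05 stood 3 of the 52 (5.77%), Kdm5b, Tet1 and Kmt2d, against 5.74% of all genes. All 3 were higher in Ppara -/- cells, a direction in which 3.14% of all genes stood at that level (2.6% in the other). Leaving out Ppara -/- replicate 3 turned the count of 3 into 1 (1.92%, against 3.75% of all genes in the same fit), leaving out Ppara -/- replicate 2 turned it into 6 (11.5% against 7.9%), and leaving out Ppara +/+ replicate 3 turned it into 5 (9.62% against 5.12%). In 6 of the 52 (11.5%) every Ppara -/- value lay above every Ppara +/+ value, and in 0 below; over all genes such a separation was seen in 8.73%, upward in 5.11% and downward in 3.62%. The lowest adjusted p among the 52 was 0.496, that of Kdm5b. Exact permutation tests on single genes cannot give a p under 0.1 with 3 arrays against 3.

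The intervals say how large a change of signal the data leave room for. In 45 of the 52 genes the 95% interval lay within a 1.5-fold change either way. The 7 whose interval reached beyond a 1.5-fold change were Tet1, Tet2, Ezh2, Suz12, Rnf2, Kdm5b and Hdac2. For the leukemia genes Dnmt3a, Kdm6a and Asxl1, for example, the intervals ran from -0.22 to 0.25, from -0.39 to 0.43 and from -0.04 to 0.47. Of these, Dnmt3a and Kdm6a are among the 25 dim genes described below, for which an interval bounds signal rather than RNA.

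**Figure D1:**
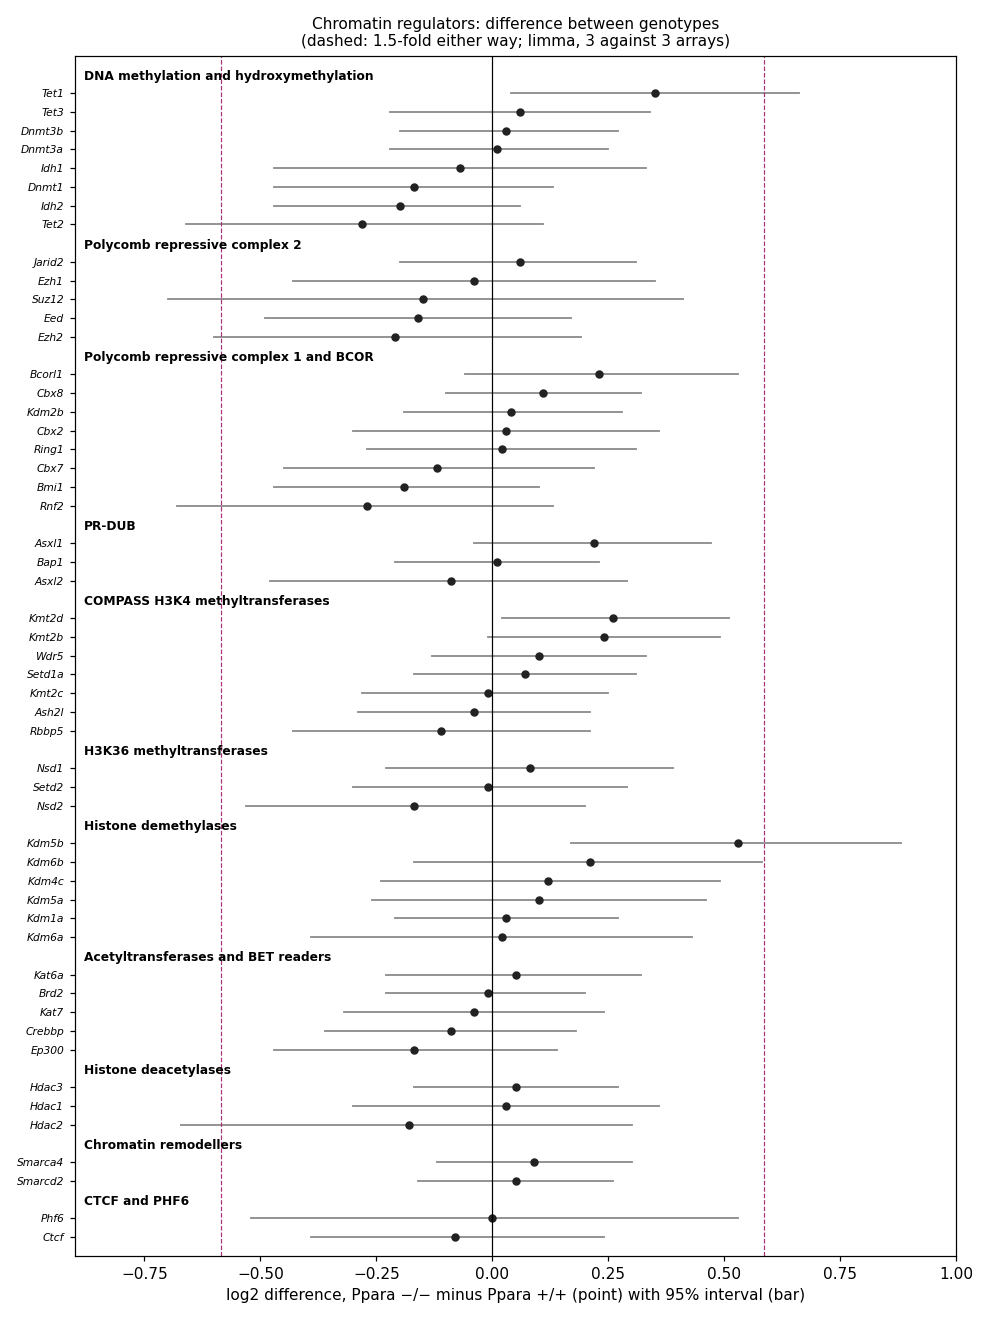
Log2 difference in signal between genotypes for the 52 measured chromatin regulators, grouped by complex. Points are the limma differences, Ppara -/- minus Ppara +/+ (3 arrays each), bars their 95% intervals and dashed lines a 1.5-fold change either way; all 52 intervals stay within a 2-fold change, and the point farthest from 0 is that of Kdm5b at 0.53.

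A signal on this array is a log2 brightness, and the table has no detection calls. The brightness of negative-control probe sets gives a scale: their 95th percentile was 7.91 to 8.23 on the 6 arrays. What their probes match was not given in the sources used here, so this scale is not a proven floor. Of the 52 genes, 20 lay above it on all 6 arrays, 7 on 1 to 5 arrays and 25 on none, and 51 lay above the negative-control median on every array. The exception was Tet1 on Ppara +/+ replicate 1. Signals of different probe sets are not compared with each other, since brightness depends on the probes. In a dim probe set a change of RNA is compressed, so the intervals of the 25 genes bound the change of signal rather than of RNA. Among the 3860 genes whose mean lay above the median of the arrays' 95th percentiles, 12.7% had an unadjusted p under 0.05, and of the 23 chromatin regulators among them 1 (4.35%) did, Kmt2d.

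The RefSeq promoter windows of these genes share a feature that the choice of genes did not use, a high content of CpG, the dinucleotide that DNMT enzymes methylate and that CXXC domains of TET1, KDM2B, KMT2B and DNMT1 recognise. A window here is the 250 bases before a start site in mouse assembly GRCm38.p6. Windows were given for 45 of the 56 genes, 60 windows in all. With the window richest in CpG taken for each gene, the median was 23 CpG against 6 over the 27025 genes with a window, and 43 of the 45 genes (95.6%) had at least 10 against 40.2% of all genes. Median GC content was 68.4% against 52.8%. The comparison was with all genes that have a window and not with genes of similar signal, so it does not set chromatin regulators apart from other expressed genes. The windows of the 3 genes with an unadjusted p under 0.05 are printed because their genes came nearest to a difference, and that of Smarcd2, a subunit of the SWI/SNF remodeller, as a member with few CpG. Each reads 5′ to 3′ on the strand of its gene, with CG in capitals; Kdm5b has 13 CpG (chr1:134559928-134560177, plus strand), Tet1 15 (chr10:62887325-62887574, minus), Kmt2d 26 (chr15:98871206-98871455, minus) and Smarcd2 4 (chr11:106267633-106267882, minus).
Kdm5b: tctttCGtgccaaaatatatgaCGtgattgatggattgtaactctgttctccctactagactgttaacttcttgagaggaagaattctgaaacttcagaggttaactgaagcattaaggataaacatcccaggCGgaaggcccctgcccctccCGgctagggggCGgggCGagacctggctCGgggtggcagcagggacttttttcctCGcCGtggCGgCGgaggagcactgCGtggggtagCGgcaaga
Tet1: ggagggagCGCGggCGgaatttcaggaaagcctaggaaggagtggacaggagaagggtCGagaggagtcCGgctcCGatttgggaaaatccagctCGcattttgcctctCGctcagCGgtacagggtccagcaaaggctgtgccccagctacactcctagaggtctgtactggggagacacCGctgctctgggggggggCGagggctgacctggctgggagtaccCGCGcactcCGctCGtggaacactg
Kmt2d: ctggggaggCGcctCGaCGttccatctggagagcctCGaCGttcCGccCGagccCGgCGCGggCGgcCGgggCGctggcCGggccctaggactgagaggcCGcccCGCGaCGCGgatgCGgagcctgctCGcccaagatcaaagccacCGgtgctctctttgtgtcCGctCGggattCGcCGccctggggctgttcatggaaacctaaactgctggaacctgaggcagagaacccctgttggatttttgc
Smarcd2: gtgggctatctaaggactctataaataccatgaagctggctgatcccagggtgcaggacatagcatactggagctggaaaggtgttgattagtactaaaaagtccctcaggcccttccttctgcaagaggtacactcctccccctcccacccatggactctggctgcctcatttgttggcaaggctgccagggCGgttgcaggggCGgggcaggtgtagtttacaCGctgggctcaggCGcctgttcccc

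PPARA binds DNA with RXR at a direct repeat of AGGTCA with 1 base between the copies. The exact repeat, AGGTCA followed by any base and AGGTCA again, searched on both strands, was in 0 of the 60 windows and in 0.033% of the 32851 windows of all genes. The hexamer AGGTCA or its complement TGACCT, which is also part of the longer repeat, was in 6 of the 60 windows (10.0%), the printed one of Tet1 among them, against 14.0% of all windows. A match is a description of these letters and not evidence of binding, and the files hold no binding data.

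Kdm5b had the smallest p of the 52. Its protein removes methyl groups from lysine 4 of histone H3. Its log2 signal was 6.82, 6.46 and 6.90 on Ppara +/+ replicates 1, 2 and 3 and 7.16, 7.10 and 7.50 on Ppara -/- replicates 1, 2 and 3. Every Ppara -/- value lay above every Ppara +/+ value, with the widest step from Ppara +/+ replicate 2 to Ppara -/- replicate 3. The means were 6.73 ± 0.23 and 7.25 ± 0.22 (SD, n = 3), a signal ratio of 1.44 (log2 difference 0.53, SE 0.16, 95% interval 0.17 to 0.88; limma, unadjusted p = 0.00853, adjusted p = 0.496). All 6 values lay under the negative-control 95th percentile of their array.

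The other histone demethylases lay closer to 0. Kdm6b, which removes the PRC2 mark, was at 9.09, 9.05 and 9.57 on the Ppara +/+ arrays and at 9.27, 9.40 and 9.66 on the Ppara -/- arrays, with overlap between the genotypes (log2 difference 0.21, SE 0.17; limma adjusted p = 0.997). Its X-linked relative Kdm6a, a tumour suppressor in AML, was at 7.78, 7.18 and 7.33 against 7.25, 7.71 and 7.39, a difference of 0.02. Kdm1a, the target of LSD1 inhibitors that push MLL-fused leukemia cells to differentiate, had a difference of 0.03 (95% interval -0.21 to 0.27). Kdm4c (0.12) and Kdm5a (0.10) complete the 6, all with a positive difference and a median of 0.11. Over all genes, 17551 of 30740 differences were positive. Of the 6, all but Kdm6b lay under the negative-control 95th percentile on every array. With arrays centred on their medians, or without Ppara +/+ replicate 3 or Ppara -/- replicate 2, 5 of the 6 were positive. Without Ppara +/+ replicate 2 it was 3 of 6, with a median of -0.01.

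**Figure D2:**
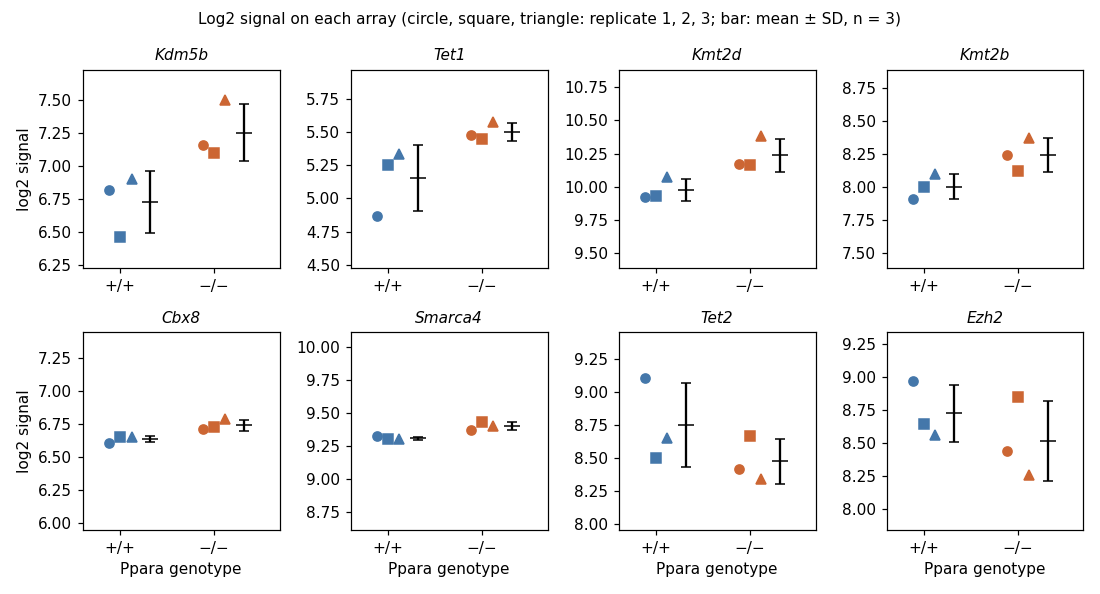
Log2 signal of 8 chromatin regulators on each array by Ppara genotype, with replicate 1, 2 and 3 as circle, square and triangle and the mean ± SD (n = 3) beside them; every panel spans the same height. The genotypes do not overlap in Kdm5b, Tet1, Kmt2d, Kmt2b, Cbx8 and Smarca4 and overlap in Tet2 and Ezh2; none passed the test across all genes.

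COMPASS enzymes and their shared core differed little in value. KMT2D and KMT2C methylate histone H3 at enhancers, and KMT2B acts at promoters. Kmt2d was at 9.92, 9.93 and 10.07 on the Ppara +/+ arrays and at 10.17, 10.16 and 10.38 on the Ppara -/- arrays. The groups did not overlap, and the means stood 0.26 apart (9.97 ± 0.08 against 10.24 ± 0.12, SD, n = 3; SE 0.11, limma adjusted p = 0.832). Kmt2b was at 7.91, 8.00 and 8.10 against 8.24, 8.12 and 8.37, again without overlap, with a difference of 0.24 and an interval from -0.01 to 0.49. Kmt2c, a tumour suppressor lost with chromosome arm deletions in AML, had a difference of -0.01 (interval -0.28 to 0.25) and Setd1a one of 0.07. The core subunits that all these enzymes share were at 0.10 (Wdr5), -0.04 (Ash2l) and -0.11 (Rbbp5). The median of the 7 genes was 0.07.

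Among the genes of DNA methylation, 4 differences were positive and 4 negative, with a median of -0.03. Tet1, an oxidase of methylcytosine that MLL-fused leukemia cells express, was at 4.87, 5.25 and 5.34 on the Ppara +/+ arrays and at 5.48, 5.45 and 5.58 on the Ppara -/- arrays. The values did not overlap (difference 0.35, SE 0.14; limma unadjusted p = 0.0317, adjusted p = 0.798), and on every array they lay under the negative-control 95th percentile and near the negative-control medians of 4.63 to 5.16. Without Ppara +/+ replicate 1, whose value was the lowest, the difference was 0.21.

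Tet2, the family member most often mutated in myeloid disease, lay the other way. Its signal was 9.11, 8.50 and 8.65 on the Ppara +/+ arrays and 8.42, 8.67 and 8.34 on the Ppara -/- arrays. The groups overlapped through Ppara -/- replicate 2, and the difference was -0.28 (SE 0.17; limma adjusted p = 0.997). Tet3 had a difference of 0.06.

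The maintenance methyltransferase Dnmt1 was at 10.61, 10.41 and 10.43 on the Ppara +/+ arrays and at 10.30, 10.54 and 10.10 on the Ppara -/- arrays, with overlap and a difference of -0.17 (SE 0.13). Dnmt3a, the de novo enzyme that is among the most often mutated genes of human AML, was at 7.33, 7.42 and 7.50 against 7.50, 7.34 and 7.45, a difference of 0.01, and its relative Dnmt3b had one of 0.03. Idh2, whose mutant forms make a metabolite that blocks TET enzymes, was at 7.87, 7.88 and 7.75 against 7.83, 7.53 and 7.53, a difference of -0.20 with overlap. Its cytosolic counterpart Idh1 had one of -0.07.

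PRC2 had the lowest median of the 11 groups of genes, -0.15 over 5 genes, and a median SD within genotypes of 0.26, against 0.16 over the 52 genes. Ezh2, its main methyltransferase, was at 8.97, 8.64 and 8.56 on the Ppara +/+ arrays and at 8.44, 8.85 and 8.26 on the Ppara -/- arrays. The groups overlapped, since Ppara -/- replicate 2 lay above all but 1 Ppara +/+ array (difference -0.21, SE 0.17; limma adjusted p = 0.997). Suz12, a core subunit, was at 8.64, 8.03 and 7.77 against 7.80, 8.41 and 7.79, and its difference of -0.15 was smaller than its SE of 0.24. The core subunit Eed had a difference of -0.16, the alternative enzyme Ezh1 one of -0.04 and the recruiting subunit Jarid2 one of 0.06. Without Ppara +/+ replicate 1 the median of the 5 turned to 0.10, and without Ppara -/- replicate 2 it was -0.24. With the negative-control median of each array as a covariate it was 0.05.

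In all 5 PRC2 genes Ppara +/+ replicate 1 was the highest of its genotype and Ppara -/- replicate 2 the highest of its own. The same held for 31 of the 52 chromatin regulators (59.6%), for 41.7% of the genes with a mean above the negative-control 95th percentile and for 15.8% of all genes. These arrays also had the highest negative-control medians, 5.16 and 4.99 against 4.63 to 4.81 on the other 4. Over the 52 genes Ppara +/+ replicate 1 stood a median of 0.19 above the mean of the other Ppara +/+ arrays, and Ppara -/- replicate 2 stood 0.14 above the other Ppara -/- arrays, while the median absolute difference between genotypes was 0.09. A list of 31 cell cycle genes had its highest means on the same arrays, 8.76 and 8.73 against 8.22 to 8.54 on the others. With the negative-control median of each array as a covariate, the median over the 52 genes was 0.05 (35 positive, 17 negative). Over all genes it was -0.01 in that fit. Whether control brightness or cell cycle genes account for the values of chromatin regulators was not tested. Without both arrays the median over the 52 genes was 0.03, that of PRC2 -0.10 and that of the demethylases 0.16, and 0 genes of the 52 and 0 of all genes were called (limma; 4 and 2946 at an unadjusted p under 0.05, 7.69% and 9.58%).

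**Figure D3:**
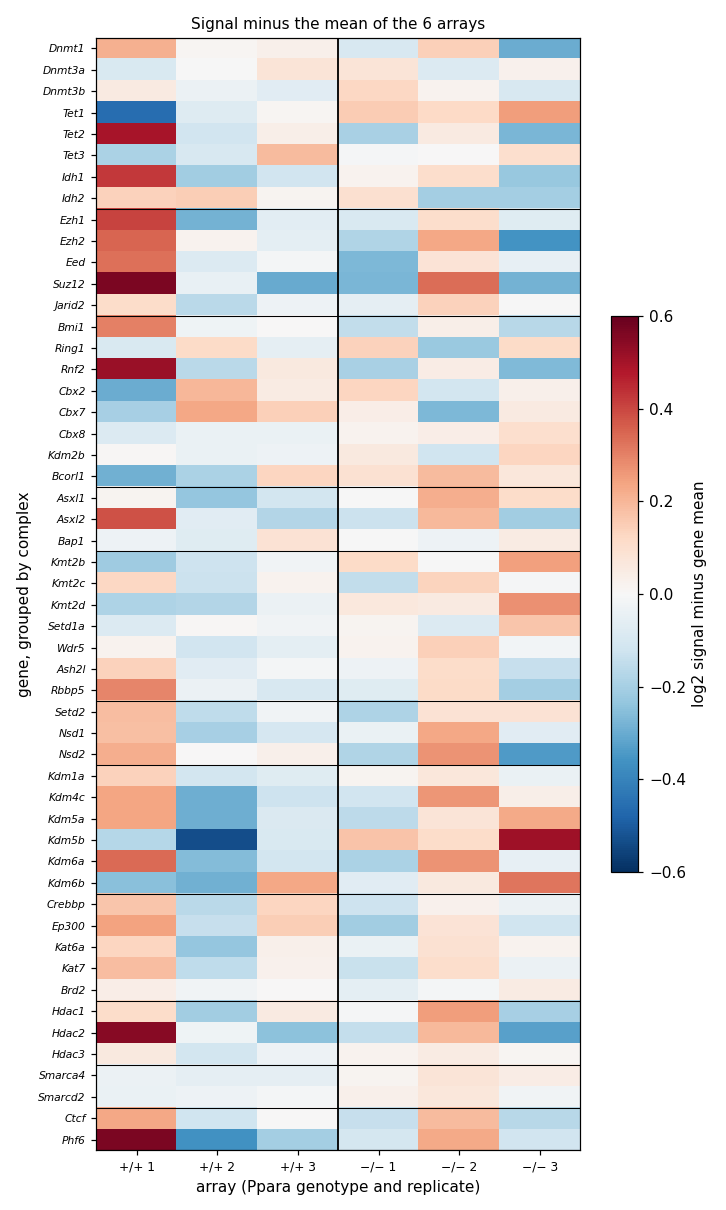
Log2 signal of each of the 52 chromatin regulators minus its own mean over the 6 arrays, with genes in the order of their complexes (horizontal lines) and arrays by Ppara genotype and replicate. The columns of +/+ replicate 1 and −/− replicate 2 are the reddest: both are the highest of their genotype in 31 of the 52 genes and in all 5 of PRC2 (Ezh1 to Jarid2).

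**Figure D4:**
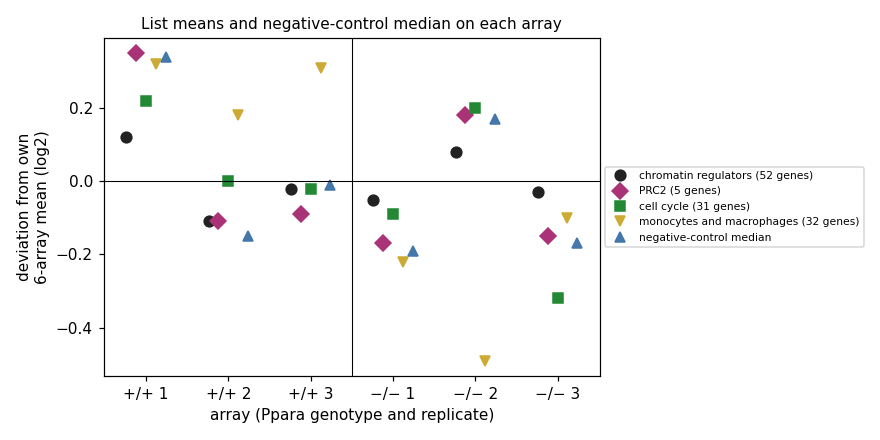
Mean of 4 gene lists and the negative-control median on each array, each as its deviation from its own mean over the 6 arrays (log2). The chromatin regulators, PRC2, the cell cycle and the negative controls are all highest on +/+ replicate 1 and −/− replicate 2, whereas monocyte and macrophage genes are lower on every −/− array than on every +/+ array.

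PRC1 and its variant with BCOR gave 5 positive and 3 negative differences, with a median of 0.03. Rnf2, the main H2A ubiquitin ligase, was at 8.01, 7.33 and 7.55 on the Ppara +/+ arrays and at 7.30, 7.54 and 7.23 on the Ppara -/- arrays. The groups overlapped (difference -0.27, SE 0.18; limma adjusted p = 0.997). Bmi1, the partner of the ligase that leukemia stem cells need for self-renewal, was at 7.20, 6.87 and 6.90 against 6.75, 6.93 and 6.73, a difference of -0.19. The second ligase Ring1 had a difference of 0.02. Bcorl1, a corepressor mutated in AML, was at 7.16, 7.26 and 7.58 against 7.54, 7.64 and 7.52, a difference of 0.23 with overlap.

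The chromobox readers of PRC1 also differed little in value. Cbx8, which MLL-AF9 transformation needs, was at 6.61, 6.65 and 6.65 on the Ppara +/+ arrays and at 6.71, 6.73 and 6.79 on the Ppara -/- arrays. The values did not overlap, yet the step was 0.11 (interval -0.10 to 0.32). Cbx7 had a difference of -0.12 and Cbx2 one of 0.03, and Kdm2b, which brings variant PRC1 to CpG islands, one of 0.04. All 8 measured genes of this group lay under the negative-control 95th percentile on every array.

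The complex that reverses PRC1, the deubiquitinase BAP1 with an ASXL protein, had differences of 0.01 (Bap1), 0.22 (Asxl1) and -0.09 (Asxl2). Asxl1, truncated by mutation in many myeloid neoplasms, was at 8.26, 8.01 and 8.13 on the Ppara +/+ arrays and at 8.24, 8.46 and 8.35 on the Ppara -/- arrays. Ppara -/- replicate 1 fell within the Ppara +/+ range (limma adjusted p = 0.98).

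Histone H3 lysine 36 methyltransferases, which mark transcribed genes, had differences of 0.08 (Nsd1), -0.01 (Setd2) and -0.17 (Nsd2). Nsd2 was at 7.93, 7.71 and 7.74 on the Ppara +/+ arrays and at 7.53, 7.98 and 7.37 on the Ppara -/- arrays, where replicate 2 was the highest of all 6.

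The 5 measured genes of the group of acetyltransferases and BET readers lay within -0.17 and 0.05. Ep300, a coactivator, was at 9.90, 9.52 and 9.81 on the Ppara +/+ arrays and at 9.45, 9.74 and 9.54 on the Ppara -/- arrays, with overlap and a difference of -0.17 (SE 0.13). Its paralog Crebbp had a difference of -0.09, Kat6a (a fusion partner in AML) 0.05, Kat7 (which MLL-fused leukemia cells need) -0.04 and the BET protein Brd2 -0.01. All 5 lay above the negative-control 95th percentile on every array.

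Hdac1 and Hdac3, the catalytic subunits of corepressor complexes, had differences of 0.03 and 0.05. A second probe set of Hdac1 gave 0.08, also not past the test. Hdac2 was at 8.08, 7.51 and 7.29 on the Ppara +/+ arrays and at 7.39, 7.73 and 7.21 on the Ppara -/- arrays, with overlap, and its difference of -0.18 was smaller than its SE of 0.21.

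Of the genes named here, 2 measured ones belong to the SWI/SNF remodeller. Its ATPase Smarca4, which AML cells need to keep Myc transcribed, was at 9.32, 9.30 and 9.30 on the Ppara +/+ arrays and at 9.37, 9.43 and 9.40 on the Ppara -/- arrays. The values did not overlap, with a spread of 0.02 within a genotype, but the step was 0.09 and its interval ran from -0.12 to 0.30 (limma adjusted p = 0.997). Smarcd2, a subunit that granulocyte development needs, had a difference of 0.05. The insulator protein Ctcf was at 9.10, 8.75 and 8.87 against 8.73, 9.06 and 8.70 (difference -0.08), and Phf6, an X-linked tumour suppressor, at 7.39, 6.46 and 6.62 against 6.72, 7.05 and 6.71 (difference 0.00).

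A second list of 114 chromatin regulators outside the 56, 100 of them measured, had a median of 0.02, 55 positive and 45 negative differences, and 0 genes past the test. At an unadjusted p under 0.05 stood 8 of the 100 (8.0%), 5 with higher and 3 with lower values in Ppara -/- cells, against 5.74% of all genes (3.14% higher, 2.6% lower). Kmt2a, the gene whose human counterpart is fused in MLL-AF9, was at 8.88, 8.73 and 9.05 on the Ppara +/+ arrays and at 9.08, 9.24 and 9.25 on the Ppara -/- arrays, without overlap (difference 0.30, SE 0.12; limma adjusted p = 0.784). Whether its probes also match the MLL part of the retrovirus is not known from the files. The others higher at an unadjusted p under 0.05 were the acetyltransferase Kat2a (0.33), the deacetylases Hdac4 (0.36) and Hdac6 (0.29) and the remodeller Chd3 (0.59). Chd3 overlapped between genotypes, with an SD of 0.54 on the Ppara -/- arrays. Chd3 and Hdac6 lay under the negative-control 95th percentile on every array.

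The 3 lower at an unadjusted p under 0.05 were Kdm7a, Carm1 and Gatad2b, and none of them passed the test. Kdm7a, a demethylase of repressive marks, was at 8.74, 8.29 and 8.58 against 7.83, 8.00 and 8.23 (difference -0.52, SE 0.15, limma adjusted p = 0.488). The arginine methyltransferase Carm1 had a difference of -0.31. Gatad2b, a subunit of the NuRD deacetylase complex, had one of -0.30 with overlap between genotypes. Men1 and Dot1l, cofactors of the fusion protein, had differences of 0.08 and -0.05.

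The sorted cells carried the marks of myeloid leukemia cells on both genotypes: 13 of 18 measured identity genes, Mpo, Elane, Prtn3 and Ptprc among them, lay above the negative-control 95th percentile on all 6 arrays, and the list had a median difference of 0.02. None of the 18 passed the test, while 4 stood at an unadjusted p under 0.05 without overlap between genotypes, the receptor genes Kit (0.54) and Csf3r (0.37) and the homeobox gene Hoxa10 (0.35) with higher values in Ppara -/- cells and the progenitor marker Cd34 (-0.87) with lower ones. None of the measured erythroid (11), B cell (11), T and NK cell (17) or megakaryocyte (7) markers lay above that percentile on any of the 6 arrays, with median differences of 0.01, 0.03, 0.02 and 0.09, and of 14 stroma and endothelium markers (median 0.03) only Pecam1 did. Of these markers, Pdgfrb of the stroma (-1.03; limma adjusted p = 0.0719), Itgb3 of megakaryocytes (-0.60) and Cd79b of B cells (-0.40) had lower values in Ppara -/- cells without overlap and at an unadjusted p under 0.05, and none of the 3 passed the test. Genes of handling stress had a median of -0.02 over 14. Monocyte and macrophage genes had 24 negative differences of 32, with a median of -0.35, 2 past the test as lower (Clec4a1 and Vcam1), 16 at an unadjusted p under 0.05 and 16 without overlap, all of these lower, and list means of 7.31 to 7.45 on the Ppara +/+ and 6.64 to 7.03 on the Ppara -/- arrays; cell cycle genes had 27 negative differences of 31, with a median of -0.14 and 0 past the test (limma; 1 at an unadjusted p under 0.05). Beside these counts, 5.74% of all genes stood at an unadjusted p under 0.05 (3.14% higher, 2.6% lower). A separation without overlap was seen in 8.73% of all genes (5.11% higher, 3.62% lower). The cell cycle values depended on single arrays. Without Ppara -/- replicate 3 the 31 genes had 18 negative differences and a median of -0.03. Without Ppara -/- replicate 2 they had 28 and a median of -0.30. In that fit 11 stood at an unadjusted p under 0.05 (limma), against 7.9% of all genes, and 0 passed the test. In sorted samples, a change in the share of a cell type and a change of RNA per cell cannot be told apart. Ppara itself was at 5.19 ± 0.12 (SD, n = 3) in the knockout and 5.08 ± 0.18 (SD, n = 3) in the wild type, near the negative-control medians, so its signal does not check the genotype labels.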

How the data were processed

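Total RNA of 6 sorted samples was hybridised to Affymetrix mouse arrays, and groups and replicate numbers come from the sample titles. Each deposited value is the log2 signal of a probe set on an array. The submitters' processing notes name RMA, which normalizes arrays by quantiles, and limma, with no version. The genome build was not given in the sources used here. Of 72688 rows, 6732 were controls, 31212 were paired with 1 gene by the platform annotation (names of 1 gene ID were merged and updated with the RefSeq table of GRCm38.p6), 1538 with several and 33206 with none. The row with the highest mean stood for each of 30740 genes.

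The comparison used lmFit and eBayes of limma 3.58.1 (R 4.3.3; two-sided, no covariates, no filter), with Benjamini-Hochberg adjustment over all genes; intervals are at 95%. The fit was tested on simulated data. The number of arrays limits the precision. The members, gene lists and alternatives were chosen with earlier results of these data known. Values per array are given for members with an unadjusted p under 0.05, for Dnmt1 and Tet1, for the member of each complex with the smallest p, and for others chosen after their values were seen. Of the second list, the rule took the 6 genes with the smallest p; Chd3, Gatad2b, Men1 and Dot1l were added after their values were seen, as were the genes named from the marker lists. Python 3.11.15 with pandas 2.3.3 made the tables and matplotlib 3.10.9 the figures.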

Additional observations from a re-analysis of the deposited data

How the results depend on the processing

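No chromatin regulator of either list was called in any of the 18 other fits or at an adjusted p under 0.1. The lowest adjusted p of a member over these fits was 0.177 (Kdm5b, array weights). The count over all 30740 genes, 36, was 69 with a trended and robust prior, 22 after another quantile normalization, 12 after median centring, 14 after cyclic loess, 1 among genes with a mean above the negative-control 95th percentile, 55 among genes above the negative-control median on 3 arrays, 277 with array weights, 0 without Ppara +/+ replicate 1 and Ppara -/- replicate 2 together, 74 at an adjusted p under 0.1 and 6 to 36 with 1 array left out (6, 11 and 15 without Ppara -/- replicate 1, 2 and 3, and 13 without Ppara +/+ replicate 3). The cause was not tested, except that the filters and left-out arrays test fewer genes or arrays. The labels do not say whether same-numbered samples were handled together. Correlations of same-numbered deviations were -0.328, -0.469 and 0.107, which cannot settle it, since the highest was 0.499 between Ppara +/+ replicate 1 and Ppara -/- replicate 2. With the replicate number as a block 12 genes and 0 members were called.

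Members at an unadjusted p under 0.05 numbered 0 of 23 among genes above the negative-control 95th percentile (8.11% of all genes in that fit), 7 with the negative-control signal as a covariate (13.5% against 8.53%) and 1 to 6 with 1 array left out (1.92% to 11.5%, with 3.74% to 7.9% of all genes). Kdm5b was at that level in all 17 other fits that held it, with differences of 0.39 to 0.65, Tet1 in 14 of 17 and Kmt2d in 5 of 18. All fits reuse the same arrays, so these counts are not independent support. Each of these genes has 1 row, so fits that use every row of a gene repeat the main values. With all 6 arrays, medians moved by more than the spread between arrays in these cases. The filter on the 95th percentile kept 3 of the 8 DNA methylation genes, with a median of -0.17. Of the BAP1 complex it kept 1 gene, Asxl1, at 0.22. This filter drops genes and leaves the difference of each kept gene as it was. PRC1 went to -0.06 with the covariate, and the remodellers to 0.05 and 0.11 after median centring and cyclic loess. With 1 array left out, PRC2 moved past that spread without Ppara +/+ replicate 1 (0.10) and COMPASS without Ppara -/- replicate 3 (0.02). PRC1 did so in every such fit except that without Ppara +/+ replicate 3. In these fits the medians ranged from -0.24 to 0.10 for PRC2, from -0.05 to 0.10 for PRC1 and from 0.02 to 0.08 for COMPASS.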
